A study of Mus musculus with 30 samples.

Results

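The genes that code for the cytosolic ribosomal proteins were followed through blood cell formation in vitro, in WT cells and in cells with a mutation in 1 of 2 related transcription factors. The members were taken by their gene symbol: Rpl or Rps followed by a number, with or without a closing a or x, and the 3 genes of the P-stalk (Rplp0, Rplp1 and Rplp2). The rule found 75 members among 14685 genes, of which 43 code for proteins of the large subunit, 29 for proteins of the small subunit and 3 for the P-stalk. It missed 13 ribosomal genes with other names, such as Rpsa and Fau, which are given separately. Genes above 1 FPKM in at least 1 sample were tested (14525 genes), and all 75 members were among them.

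RNA was sequenced from mouse E14 embryonic stem cells (ESC) and from cells derived from them. The 5 populations were ESC, Flk1+ cells purified on magnetic columns from embryoid bodies, and 3 populations sorted at day 2 of a blast culture of those Flk1+ cells: HE1 (KIT+, CD41−, Tie2+) and HE2 (KIT+, CD41+, Tie2+), which are stages of hemogenic endothelium, and progenitors (KIT+, CD41+, Tie2−). Each was taken from WT cells, from Sp1ΔDBD/ΔDBD cells, in which both copies of Sp1 lack the DNA-binding domain, and from Sp3-/- cells, a complete knockout of Sp3, with 2 replicates per group and 30 samples in all. All lines were labelled E14 and had been kept on mouse embryonic fibroblast feeders, then without feeders before differentiation; how many clones stood behind each mutant was not given in the sources used here, so a difference of a mutant cannot be told apart from a difference of its line.

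A ribosome holds a copy of nearly every one of these proteins, so a cell needs them in nearly equal numbers, and their mRNAs are among the most abundant of a growing cell. The mRNAs begin with a run of pyrimidines, the 5′ TOP motif, through which mTOR and Larp1 set their translation together. Sp1 and Sp3 are zinc finger factors that bind the GC box, a short GC-rich stretch found in many promoters of genes used by every cell, those of ribosomal proteins among them. Loss of 1 copy of some ribosomal protein genes causes Diamond-Blackfan anaemia, a failure of red cell formation.

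The values were FPKM (fragments mapped to a gene, scaled to transcript length and library size) after quantile normalisation over all samples, which gives every sample the same set of values and assigns them by rank. A value therefore stands for a gene's place among the genes of its sample, and a change is a change against the other genes. Fewer cells of a type and less RNA per cell cannot be told apart in such bulk samples, and the number of reads behind a value is unknown. Called means a limma adjusted p under 0.05 on log2(FPKM + 0.1), and rose, fell and changed are used only of called genes. Sp3 fell in Sp3-/- cells in all 5 populations (log2 fold changes from -2.40 to -3.32). In Sp1ΔDBD/ΔDBD cells the log2 fold changes of Sp1 ran from -0.10 to -0.76. Sp1 fell there in Flk1+ cells (-0.63, limma adjusted p = 0.0311), in HE2 (-0.56, limma adjusted p = 0.040) and in progenitors. In progenitors its mean went from 29.5 to 17.6 FPKM (limma adjusted p = 7.88e-03), and in ESC and HE1 it was not called. The summed level of 4 ESC marker genes was 995 to 1253 FPKM in the ESC samples and 20.1 to 96.8 FPKM in Flk1+ cells. It was at most 2.03 FPKM in HE1, HE2 and progenitors. That of 6 erythroid marker genes was highest in progenitors, at 1521 to 13630 FPKM.

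The members filled the top of every sample. The median of their mean levels was 962 FPKM (866 for the large subunit, 973 for the small subunit and 962 for the P-stalk), where the gene at rank 100 of a sample had 604 FPKM and the gene at rank 200 had 261. Together they made up between 15.4% and 17.7% of the summed FPKM of a sample. The highest were Rpl41, the shortest ribosomal protein, with a mean of 2096 FPKM over the 30 samples (1460 to 2745), Rps12 with 1810 and Rpl12 with 1678. The 5 members with means under 200 FPKM were Rpl26, Rpl34, Rpl29, Rps15a and Rpl22, at 4.74, 39.4, 67.1, 114 and 180 FPKM, while the other 70 stood above that level.

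**Figure D1:**
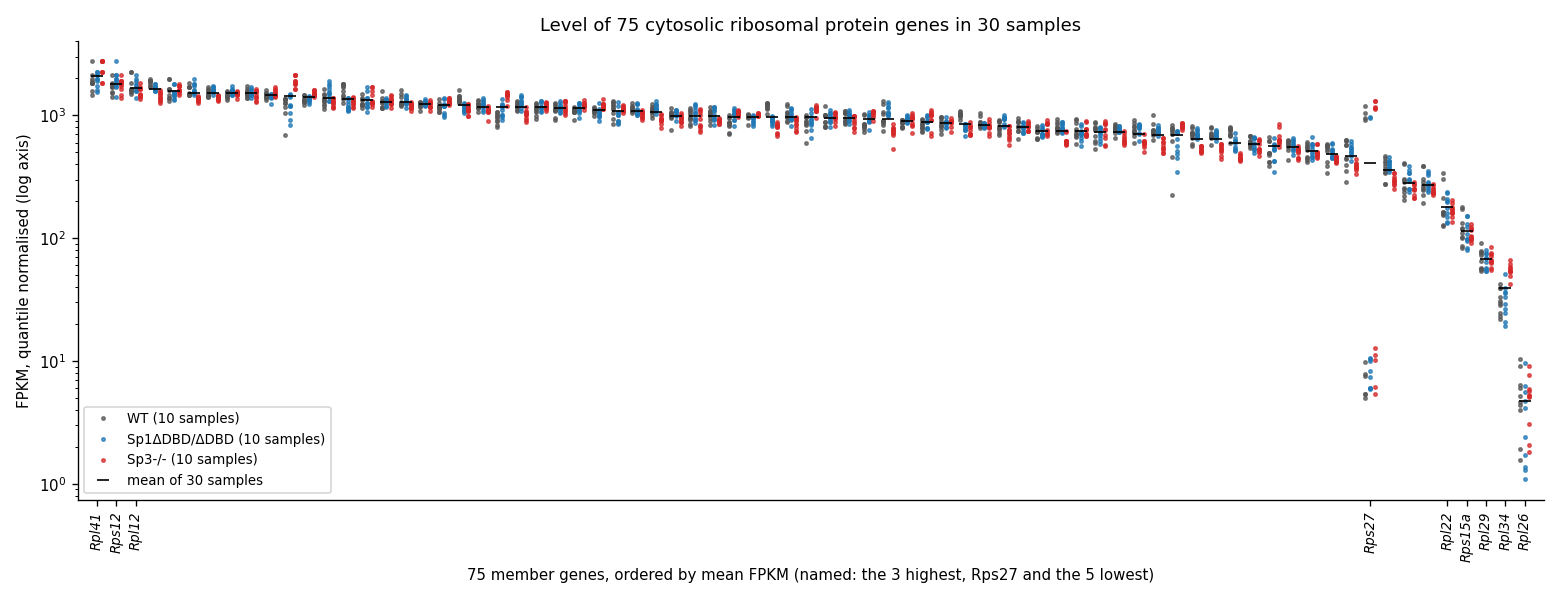
Level of each of the 75 members (quantile normalised FPKM on a log axis) in 30 samples, with members ordered by their mean (black bar), the 3 highest, Rps27 and the 5 lowest named, and points coloured by genotype, 10 samples each. Most members lie within a narrow band near 1000 FPKM; Rps27 splits into 11 samples at 918 FPKM or more and 19 at 12.8 FPKM or less, and Rpl26 is lowest with a mean of 4.74 FPKM.

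Levels of at least 3 members were uncertain because of near-identical copies. For 62 of the members the annotation holds at least 1 other gene or pseudogene that matches at least 97% of the coding sequence, and for 10 members such a copy is in the table. Rps27 had 5.01 to 12.8 FPKM in 19 samples and 918 to 1313 FPKM in the other 11. Its retrotransposed copy Rps27rt, whose sequence matches 100% of the Rps27 coding sequence, had 8.45 to 38.2 FPKM in those 11 samples and 925 to 1609 FPKM in the 19. The sum of both stayed between 930 and 1618 FPKM. The swap parted replicates of a group, as in WT Flk1+ cells with 7.77 and 1187 FPKM, so the values of Rps27 reflect how reads were shared between 2 genes and its fold changes over WT, from -7.41 to 4.07 on the log2 scale and none of them called, are not read further.

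Rpl26, whose protein lies at the exit of the peptide tunnel, was low beside its copy in every sample. Its copy Gm15772, named here after its values were seen, matches 99.5% of the coding sequence and had a mean of 1524 FPKM (1244 to 2128). Rpl34 had a mean of 39.4 FPKM beside 247 FPKM for its copy Rpl34-ps1 (171 to 395, also looked up after the values were seen), with 99.4% identity. Calls of Rpl26 and Rpl34 are therefore marked as uncertain where they occur. Beyond these, Rps27 aside, no member had a copy in the table above 62.5 FPKM. Whether copies missing from the table took reads from members is unknown, as for Rpl21 with 32 copies in the annotation.

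Members varied little across the study. The SD of the 15 group means on the log2 scale had a median of 0.16 over the members and 0.62 over all genes tested, and 73 of the 75 members were below that second value. Replicates also lay closer: the median absolute log2 difference between the 2 replicates of a group was 0.03 to 0.16 over the members, against 0.10 to 0.33 over all genes. It was lowest in Sp3-/- cells (0.03 to 0.08) in every population but Flk1+ cells, where WT had 0.043 and Sp3-/- 0.045. It reached 0.16 in Sp1ΔDBD/ΔDBD ESC. Apart from the log-scale movement of Rps27, Rpl26 and Rpl34, which varied most against the median member, the widest range was that of Rpl36, with the lowest group mean in WT ESC and the highest in Sp3-/- Flk1+ cells. Most genes tested stood far below most members, with 37.4 FPKM at rank 2000 of a sample. For neither measure of spread were the members compared with genes of a like level.

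Promoters of 55 members were found in RefSeq (GRCm38.p6), 65 in all. Each spans 250 bases before and 50 bases after a transcription start. The letters GGGCGG, the core of the GC box, were searched on both strands. They occurred in 60% of member promoters, in 60.8% of those of the genes tested and in 35.7% of 32851 promoters of the genome. The letters CCGGAAG, the core site of ETS family factors such as Gabpa, occurred in 35.4% of member promoters, against 16.2% and 8.86%. AAGATGG, the core site of Yy1, occurred in 16.9%, against 6.71% and 6.34%, and TATAAA in 9.23%, against 7.34% and 13.6%. A run of at least 5 pyrimidines that began with C within 10 bases of the start occurred in 55.4% of member promoters, against 32.2% and 30.7%. A match is a description of letters and not a bound site.

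The 120 bases before the start are shown for 2 members that fell (Rpl35a and Rpl24) and 2 that rose (Rplp2 and Rps28) in Sp3-/- cells, as described further on, with the GC box in capitals on whichever strand it lies. Rpl35a and Rplp2 hold a GC box, and Rpl24 and Rps28 hold none in their whole 300 base window. Rpl38 is shown as a member on chromosome 11.
Rpl35a (chr16:33056362-33056481, plus strand): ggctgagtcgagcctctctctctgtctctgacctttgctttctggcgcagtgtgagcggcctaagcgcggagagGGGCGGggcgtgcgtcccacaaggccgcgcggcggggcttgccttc
Rplp2 (chr7:141447531-141447650, plus strand): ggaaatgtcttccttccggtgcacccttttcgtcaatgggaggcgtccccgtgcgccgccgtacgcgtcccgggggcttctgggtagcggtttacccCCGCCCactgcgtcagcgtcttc
Rpl24 (chr16:55966155-55966274, plus strand): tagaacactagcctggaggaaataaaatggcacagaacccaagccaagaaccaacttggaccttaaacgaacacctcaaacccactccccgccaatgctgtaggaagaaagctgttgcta
Rps28 (chr17:33824563-33824682, minus strand): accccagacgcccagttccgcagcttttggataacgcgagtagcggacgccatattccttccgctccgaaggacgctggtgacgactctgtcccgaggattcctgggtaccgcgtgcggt
Rpl38 (chr11:114668460-114668579, plus strand): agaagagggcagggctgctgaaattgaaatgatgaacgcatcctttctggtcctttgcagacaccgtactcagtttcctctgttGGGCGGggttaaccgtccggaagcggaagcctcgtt

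The 30 bases around the start, 10 before and 20 after it, show the pyrimidine run of the 5′ TOP motif in capitals, as counted from the annotated start, for Rps6, Rpl38 and Rplp2. Pyrimidines also lie directly before the start in each and are left in lower case.
Rps6 (chr4:86857348-86857377, minus strand): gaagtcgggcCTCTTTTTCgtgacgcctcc
Rpl38 (chr11:114668570-114668599, plus strand): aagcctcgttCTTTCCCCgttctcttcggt
Rplp2 (chr7:141447641-141447670, plus strand): cagcgtcttcCTTTCgccgccggacgccgc

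In WT cells most of the 75 members were not called at any single step. From ESC to Flk1+ cells 14 members rose and 3 fell, where 27.4% of all genes tested rose and 24.7% fell, with a median log2 change of 0.13 for the members and 0.03 for all genes. From Flk1+ cells to HE1 2 members rose and 23 fell, where 23.5% of all genes rose and 29.5% fell, with medians of -0.15 and -0.08. At these steps 2 and 3 members moved by over 1 on the log2 scale, Rps27 among them, against 35.6% and 34.9% of all genes. From HE1 to HE2 3 members rose and none fell, where 11.7% and 10.2% of all genes did. The rises of Rpl26 and of Rpl34 (0.80 on the log2 scale) among them are uncertain because of their copies. From HE2 to progenitors no member was called by limma (5.46% and 7.78% of all genes rose and fell), and 1 had an unadjusted p under 0.05. The steps share groups with each other, and HE1, HE2 and progenitors were sorted from the same kind of culture.

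Rpl22, a protein of the large subunit that cells can do without, moved most clearly. It had 210 and 156 FPKM in WT ESC, 301 and 336 FPKM in WT Flk1+ cells and 125 and 128 FPKM in WT HE1. The Flk1+ samples were above all of the others, and HE1 was below both. It rose by 0.81 (SE 0.17, adjusted p = 4.86e-04) and then fell by 1.33 on the log2 scale (SE 0.17, adjusted p = 2.29e-06). Rpl36 had 459 and 223 FPKM in WT ESC and 828 and 707 FPKM in WT Flk1+ cells, with a log2 change of 1.26 (SE 0.32, adjusted p = 2.62e-03). The ESC replicates lay far apart, and without WT ESC replicate 2 the call was lost (0.0922). Rpl7a fell from 1395 and 1574 FPKM to 1159 and 1150 in Flk1+ cells (-0.36, adjusted p = 0.0117). Into HE1, Rpl19 and Rps6, the substrate of S6 kinase, were the members that rose, by 0.32 and 0.24 on the log2 scale. Rpl26 fell by 1.79 there and rose by 1.33 into HE2, at levels of 1.55 to 6.42 FPKM and with the uncertainty of its copy.

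Of the 17 members called from ESC to Flk1+ cells, 2, Rpl22 among them, stayed called with each of the 4 samples left out in turn, and of the 25 called from Flk1+ cells to HE1, 10 did. When values were corrected for the GC content and length of genes, 38 members were called at the first step.

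In Sp3-/- cells 13, 12 and 9 of the 43 large subunit genes fell in ESC, Flk1+ cells and HE2, while Rplp1 and Rplp2 rose in ESC and Rps29 rose in 4 populations. In Sp3-/- ESC 16 members fell and 7 rose, where 5.91% of all genes tested fell and 5.40% rose. In Sp3-/- Flk1+ cells 16 fell and 1 rose (5.94% and 6.69% of all genes), and in Sp3-/- HE2 13 fell and 1 rose (6.84% and 6.97%). The counts were smaller in HE1, with 2 lower and 4 higher (4.87% and 6.02%), and in progenitors, with 3 lower and 2 higher (4.77% and 3.88%). The median log2 fold change of the members was -0.09, -0.18, 0.05, -0.12 and 0.03 in ESC, Flk1+ cells, HE1, HE2 and progenitors, and that of all genes lay between -0.02 and 0.05. The summed level of the erythroid markers was 1521 to 3480 FPKM in Sp3-/- progenitors against 4511 to 13630 FPKM in WT. That of 4 mesoderm markers was 416 to 482 FPKM in Sp3-/- Flk1+ cells against 286 to 297 FPKM in WT. The ESC markers summed to 94.4 to 96.8 FPKM in Sp3-/- Flk1+ cells against 31.4 to 40.2 FPKM in WT. In Sp3-/- HE2 the sum of 4 endothelial markers was 351 to 352 FPKM against 489 to 559 FPKM in WT. The part of all these markers in the members' changes was not tested. These 5 comparisons use the WT samples that the comparisons of the Sp1 mutant use as well.

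**Figure D2:**
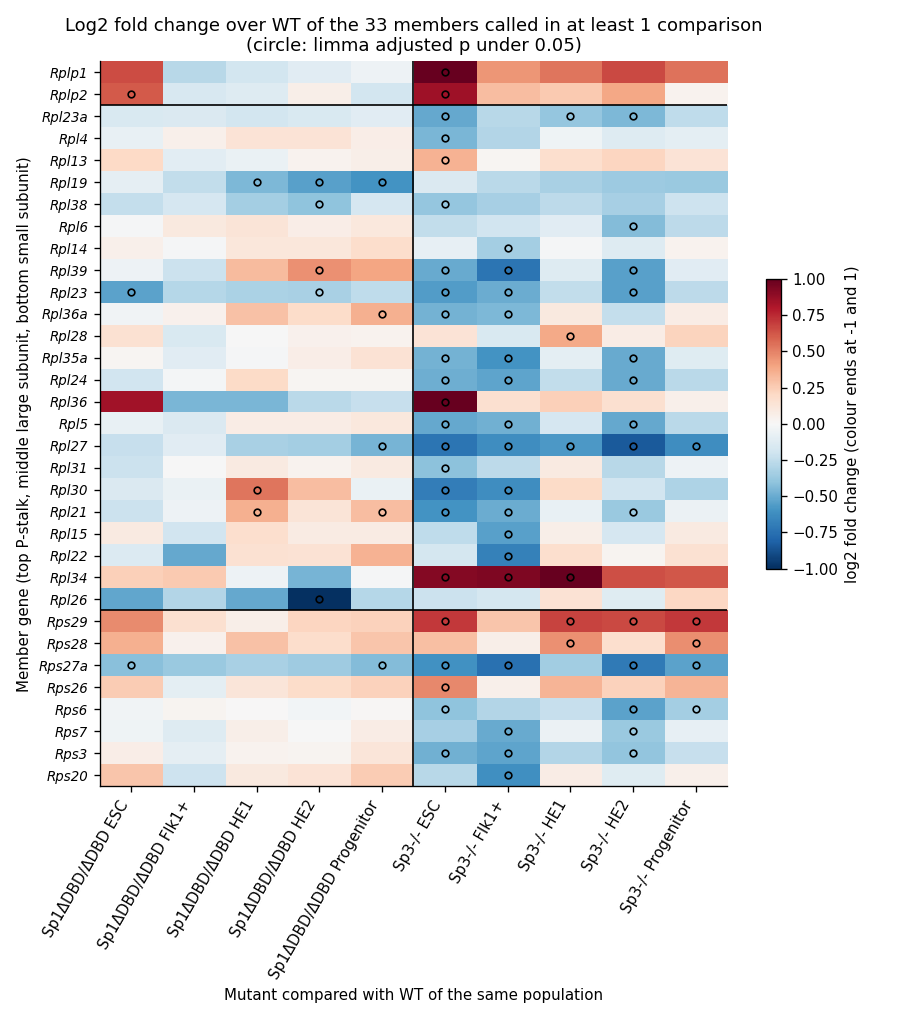
Log2 fold change of the 33 members called in at least 1 of 10 comparisons (rows, by subunit and then by mean level) in each mutant against WT of the same population (columns), with colour ending at -1 and 1 and circles for a limma adjusted p under 0.05. The Sp1ΔDBD/ΔDBD columns hold 10 calls lower and 6 higher and the Sp3-/- columns 50 lower and 15 higher, with Rpl27 circled in all 5 Sp3-/- columns.

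Rpl27, a large subunit protein mutated in some families with Diamond-Blackfan anaemia, was the member with the steadiest fall. Its levels in the 2 WT and the 2 Sp3-/- samples were 775 and 758 against 447 and 480 FPKM in ESC, and 677 and 692 against 437 and 450 FPKM in Flk1+ cells. They were 595 and 715 against 443 and 432 FPKM in HE1, 766 and 789 against 447 and 425 FPKM in HE2, and 692 and 805 against 474 and 495 FPKM in progenitors. Every Sp3-/- sample was below every WT sample, in each population and across them. The log2 fold changes were -0.73, -0.62, -0.58, -0.84 and -0.62 (SE 0.11 each), with adjusted p between 1.38e-04 and 2.52e-03, and the call held with each of the 4 samples of a comparison left out in turn, in all 5 populations.

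Rps27a, a fusion of ubiquitin with a small subunit protein, fell in 4 of the 5 populations. In Flk1+ cells it had 1125 and 1216 FPKM in WT and 684 and 715 FPKM in Sp3-/- samples, and in HE2 it had 1270 and 1174 FPKM against 797 and 700. All 10 Sp3-/- samples (684 to 879 FPKM) were below all 10 WT samples (1028 to 1270 FPKM). Its log2 fold changes were -0.61, -0.74, -0.71 and -0.54 in ESC, Flk1+ cells, HE2 and progenitors, with adjusted p between 4.85e-04 and 6.06e-03, and the call in progenitors was lost without Sp3-/- replicate 2 (0.0600). Both Rpl27 and Rps27a lie on chromosome 11, whose genes were lower in both mutants as given further on.

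The large subunit genes had a median of -0.21 in Sp3-/- ESC, where 3 of them rose, of -0.27 in Flk1+ cells, where 1 rose, and of -0.17 in HE2, where none did. Of the 29 small subunit genes 3, 4 and 4 fell in these populations and 2, 0 and 1 rose, with medians of 0.04, -0.06 and -0.02.

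Rpl39, a very short protein that lines the peptide tunnel, fell in ESC, Flk1+ cells and HE2; its change was not tested for a difference between these and the other populations, except between progenitors and ESC as given further on. It had 1228 and 1313 FPKM in WT Flk1+ cells and 789 and 742 FPKM in Sp3-/- Flk1+ cells. The log2 fold change was -0.73 there (SE 0.13, adjusted p = 1.73e-03), -0.50 in ESC and -0.54 in HE2, while in HE1 the groups overlapped (750 and 896 against 715 and 782 FPKM) and in progenitors they did as well (834 and 906 against 850 and 758 FPKM). Rpl30 had 631 FPKM in both WT ESC samples and 382 and 398 FPKM in the Sp3-/- samples, with a log2 fold change of -0.69 (SE 0.15, adjusted p = 5.69e-03) that was lost without Sp3-/- replicate 1 (0.0618). It was also lower in Flk1+ cells (575 and 570 against 371 and 375 FPKM, -0.62). The Sp3-/- samples were below the WT samples in both populations.

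Rpl24, which forms a bridge between the subunits and is named here after its values were seen, had 715 FPKM in both WT Flk1+ samples and 495 FPKM in both Sp3-/- samples, and 750 and 766 against 542 and 526 FPKM in HE2. It fell in ESC, Flk1+ cells and HE2 by 0.49, 0.53 and 0.50 on the log2 scale, and its promoter, printed above, is without a GC box. Rpl21, also named after its values were seen, fell in the same 3 populations, from 425 and 464 to 285 and 301 FPKM in ESC. Its log2 fold changes were -0.60, -0.49 and -0.37.

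Of the 3 genes of the P-stalk, the arm of the large subunit that recruits elongation factors, 2 rose in Sp3-/- ESC and none was called by limma in the other 4 populations (0, 2, 2 and 1 at an unadjusted p under 0.05). Rplp1 had 1050 and 692 FPKM in WT ESC and 1785 FPKM in both Sp3-/- samples, and it rose by 1.07 on the log2 scale (SE 0.22, adjusted p = 4.57e-03). The WT replicates lay far apart, and without WT replicate 2 the call was lost (adjusted p = 0.0752). In Flk1+ cells, HE1, HE2 and progenitors the WT samples had 1159 to 1359 FPKM and the Sp3-/- samples 1649 to 2128 FPKM. No sample overlapped there, but the log2 fold changes of 0.44, 0.53, 0.66 and 0.55 were not called (adjusted p between 0.0543 and 0.208).

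Rplp2, whose promoter holds a GC box, had 750 and 591 FPKM in WT ESC and 1216 and 1174 FPKM in Sp3-/- ESC, a log2 fold change of 0.84 (SE 0.18, adjusted p = 4.90e-03) that was lost without WT replicate 2 or Sp3-/- replicate 1 (adjusted p up to 0.0644). In the other populations its log2 fold changes were 0.04 to 0.39 and not called. Rplp0, the base of the stalk, had 805 and 797 FPKM in WT ESC and 834 and 858 FPKM in Sp3-/- ESC. It was not called in any of the 5 populations, with log2 fold changes of -0.05 to 0.21.

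Rps29, a small zinc-binding protein of the 40S head, was the small subunit gene that rose in most populations. Its WT samples had 896 and 956 FPKM in ESC, 906 and 998 FPKM in HE1, 834 and 1057 FPKM in HE2 and 797 and 977 FPKM in progenitors. The Sp3-/- samples of these populations had 1421 to 1545 FPKM, above all of them. The log2 fold changes were 0.71, 0.68, 0.66 and 0.71 (SE 0.14 each), with adjusted p between 4.01e-03 and 6.15e-03, while in Flk1+ cells the value was lower and not called, with 1072 and 1015 against 1337 and 1201 FPKM. Single samples carried these calls: that in ESC was lost without Sp3-/- replicate 1 (0.0507), those in HE2 and progenitors without WT replicate 1 (0.109 and 0.0667), and that in HE1 without WT replicate 1 or Sp3-/- replicate 2 (up to 0.0660). Rps28, whose promoter is without a GC box, rose in HE1 and progenitors (0.45 and 0.46, adjusted p = 0.0363 and 0.0377), where its levels went from 707 to 870 FPKM in WT to between 1007 and 1111 FPKM.

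Rpl36 had the largest rise of any member in Sp3-/- ESC, from 459 and 223 to 850 and 815 FPKM. Its log2 fold change of 1.38 (SE 0.32, adjusted p = 8.68e-03) was 0.86 without WT replicate 2, and the call was lost without that sample or either Sp3-/- sample (up to 0.144). In the other 4 populations WT and Sp3-/- samples ranged over 613 to 828 and 766 to 870 FPKM, with no call. Rpl34 was higher in ESC, Flk1+ cells and HE1 (0.92, 0.93 and 1.10 on the log2 scale), as in HE1 with 22.0 and 23.1 against 42.7 and 55.1 FPKM, and this call is uncertain because of the copy.

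**Figure D3:**
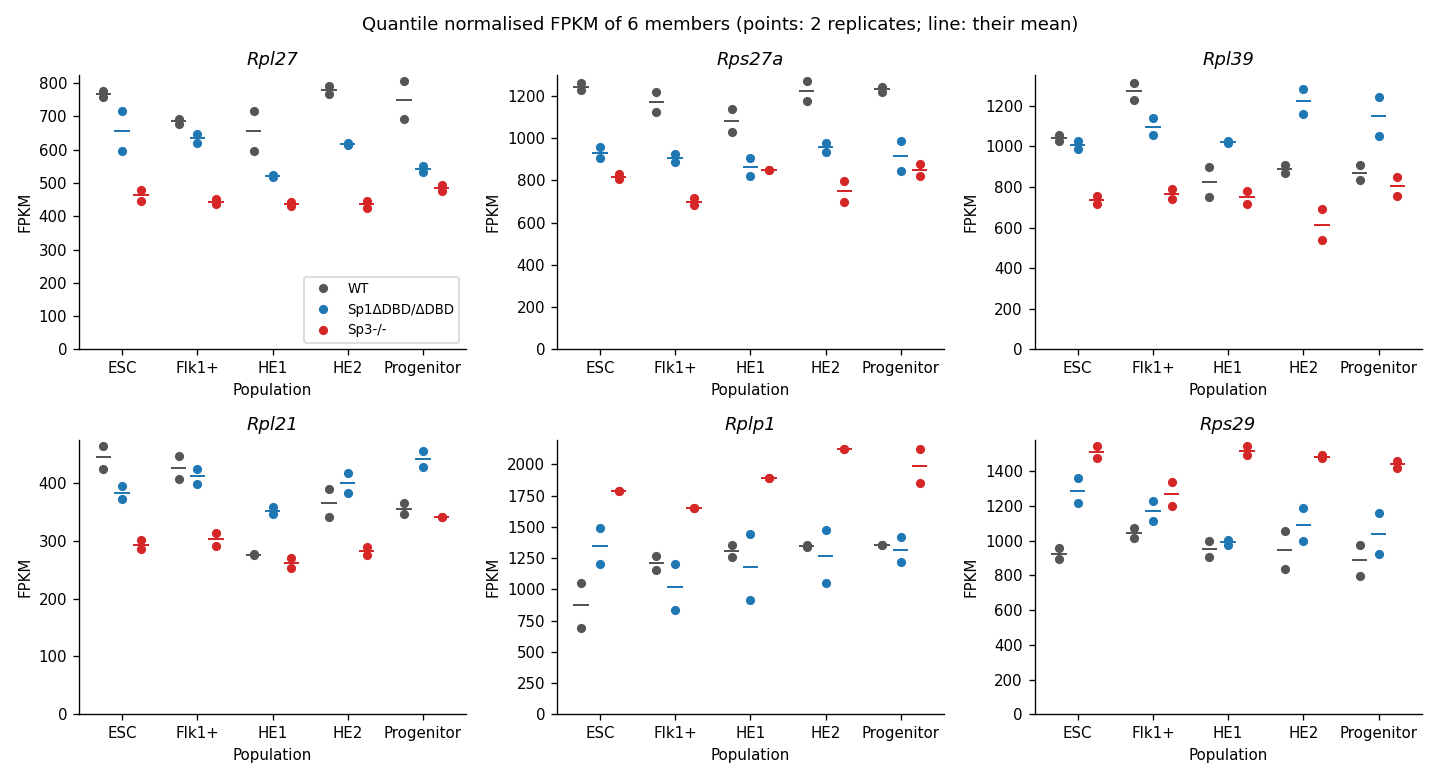
Quantile normalised FPKM of 6 members in the 5 populations, with a point for each of the 2 replicates, a line for their mean and colours for WT, Sp1ΔDBD/ΔDBD and Sp3-/- cells. The Sp3-/- samples of Rpl27 (425 to 495 FPKM) and Rps27a (684 to 879 FPKM) lie below all WT samples, those of Rplp1 (1649 to 2128 FPKM) above them, and Rpl39 is higher in Sp1ΔDBD/ΔDBD than in Sp3-/- cells in every population.

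Of the 9 members most often mutated in Diamond-Blackfan anaemia, 2 fell and 1 rose in Sp3-/- ESC, 3 fell in Flk1+ cells and 3 in HE2, and in HE1 and progenitors none was called by limma (1 and 2 had an unadjusted p under 0.05). Among all 75 members 16 fell and 7 rose in ESC, 16 fell in Flk1+ cells and 13 in HE2. Of all genes tested 5.91%, 5.94% and 6.84% fell in these populations, and 5.40% rose in ESC. Rpl35a had 870 and 918 FPKM in WT Flk1+ cells and 591 FPKM in both Sp3-/- samples, and its log2 fold changes were -0.47, -0.60 and -0.51 in ESC, Flk1+ cells and HE2. Its promoter, printed above, holds a GC box. Rpl5, which with Rpl11 and the 5S RNA binds Mdm2 when ribosome assembly fails, had 725 and 669 FPKM in WT ESC and 469 and 506 FPKM in Sp3-/- ESC. It fell by 0.51, 0.48 and 0.51 on the log2 scale in the same 3 populations.

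Rps7 fell in Flk1+ cells, from 834 and 850 to 595 FPKM in both mutant samples (-0.50, adjusted p = 5.80e-03), and in HE2 (-0.37). Rps26 rose in ESC, from 819 and 735 to 1072 and 1090 FPKM (0.48, adjusted p = 0.0209). Rps19, the gene mutated most often in the disease, was not called in any population: it had 906 and 843 against 735 and 782 FPKM in ESC, and 1050 FPKM in both WT samples against 843 and 782 in Flk1+ cells (log2 fold change -0.37, adjusted p = 0.0795). Rps10, Rps24 and Rpl11 were not called either, with log2 fold changes between -0.31 and 0.28 in the 5 populations.

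No rise of a member in Sp3-/- cells stayed called with each of the 4 samples of its comparison left out in turn. Of the falls, 4 did in ESC (Rpl21, Rpl23, Rpl27 and Rps27a), 4 in Flk1+ cells (Rpl24, Rpl27, Rpl39 and Rps27a), 1 in HE1 (Rpl27), 5 in HE2 (Rpl23, Rpl24, Rpl27, Rps27a and Rps6) and 1 in progenitors (Rpl27), and all 50 falls and 15 rises kept their sign. When each population was fitted alone, with the spread taken from its own 6 samples, limma called 2 members in ESC, 17 in Flk1+ cells and none in HE1, HE2 and progenitors (5, 13 and 4 at an unadjusted p under 0.05). The adjusted p of Rpl27 was then 0.0648 in ESC, 0.132 in HE1, 0.0828 in HE2 and 0.170 in progenitors, so its calls outside Flk1+ cells rest on the spread shared over all 15 groups.

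Few members were called in Sp1ΔDBD/ΔDBD cells, with a smaller share than that of all genes in each population. In ESC 1 member rose and 2 fell, where 2.80% of all genes tested rose and 3.26% fell, and 5 members were called with the replicate number as a block. In Flk1+ cells none was called by limma (2.92% and 2.62% of all genes), and 5 had an unadjusted p under 0.05. HE1 had 2 higher and 1 lower (5.69% and 4.35%, and 5 called with the block), HE2 had 1 higher and 4 lower (4.70% and 4.97%), and progenitors had 2 higher and 3 lower (3.75% and 5.04%). The median log2 fold change of the members was 0.00, -0.06, 0.02, 0.02 and 0.05 in the 5 populations in the same order.

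Rpl19 was the member called lower most often. It had 1785 and 1691 FPKM in WT HE1 and 1395 and 1159 FPKM in the mutant, 1729 and 1785 against 1313 and 1111 FPKM in HE2, and 1785 and 1574 against 1138 and 1080 FPKM in progenitors. The groups did not overlap in these 3 populations, while in ESC the values 1460 and 1259 against 1376 and 1174 FPKM did, although each mutant sample was below the WT sample of its own number. The log2 fold changes were -0.45, -0.54 and -0.60 (SE 0.13 each, adjusted p = 0.0363, 0.0132 and 7.55e-03). The call in progenitors was lost without WT replicate 1 (0.0835), and those in HE1 and HE2 were lost in 3 of 4 fits with a sample left out. After the correction for GC content and length given further on, the call in progenitors stayed and those in HE1 and HE2 were lost (adjusted p = 0.202 and 0.0802).

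Rpl23, a large subunit protein that can bind Mdm2, had 1007 and 1072 FPKM in WT ESC and 677 and 758 FPKM in Sp1ΔDBD/ΔDBD ESC. It fell by 0.54 on the log2 scale (SE 0.10, adjusted p = 2.78e-03), the 1 call of a member in this mutant that held with each sample left out, though it was lost after the same correction (0.0996). Rps27a fell in ESC, from 1259 and 1228 to 956 and 906 FPKM (-0.42, adjusted p = 0.0297), and in progenitors, where Rpl27 fell too, from 692 and 805 to 550 and 531 FPKM (-0.47, adjusted p = 0.0108, lost without WT replicate 2 at 0.110). Rpl26 had 5.15 and 3.96 FPKM in WT HE2 and 1.71 and 1.36 FPKM in the mutant, a call with the uncertainty of its copy.

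The rises were in other genes. Rplp2 had 750 and 591 FPKM in WT ESC and 1125 and 918 FPKM in the mutant (0.61, adjusted p = 0.0471), and Rplp1 had 1493 and 1201 FPKM against 1050 and 692 without a call (0.65, adjusted p = 0.0936). Rpl21 rose in HE1, from 277 and 275 to 358 and 346 FPKM (0.35), and in progenitors, from 365 and 346 to 455 and 428 FPKM (0.31). Rpl30 rose in HE1 from 285 and 353 to 421 and 501 FPKM (0.53), Rpl39 in HE2 from 870 and 906 to 1159 and 1284 FPKM (0.46), and Rpl36a in progenitors from 725 and 766 to 956 and 946 FPKM (0.35). None of the rises in this mutant held with each sample left out. When each population was fitted alone, limma called no member in Sp1ΔDBD/ΔDBD cells (5, 10, 2, 3 and 2 at an unadjusted p under 0.05 in the 5 populations). None of the 9 Diamond-Blackfan genes was called by limma in any of the 5 populations (1 had an unadjusted p under 0.05, in Flk1+ cells), with log2 fold changes of -0.30 to 0.28.

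Across both mutants 33 members were called in at least 1 of the 10 comparisons with WT and 42 in none, 11 of them in Sp1ΔDBD/ΔDBD and 31 in Sp3-/- cells.

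The mutants were then compared with each other. The log2 differences do not involve the WT samples, but the spread behind the calls was shared over all 15 groups. Sp3-/- cells were lower in 11 members in ESC and higher in none (5.37% and 4.30% of all genes lower and higher), lower in 12 and higher in none in Flk1+ cells (3.78% and 3.61%), and lower in 3 and higher in 5 in HE1 (6.74% and 6.83%). HE2 had 14 members lower and 4 higher (8.45% and 7.41%), and progenitors had 6 lower and 1 higher (6.09% and 5.51%). Outside Rps27, Rpl26 and Rpl34, Rpl39 differed most: in HE2 it had 1159 and 1284 FPKM in Sp1ΔDBD/ΔDBD and 692 and 537 FPKM in Sp3-/- cells. The log2 difference was -1.001 (SE 0.13, adjusted p = 6.58e-05), with WT between them at 870 and 906 FPKM, and Rpl39 was called lower in all 5 populations (between -0.45 and -1.001). Rpl21, named after its values were seen, was called lower in all 5 as well, by 0.37 to 0.50 on the log2 scale.

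Rpl30 differed by -0.55 in both ESC and Flk1+ cells, and Rpl24 by -0.44 in HE1. Rps20 differed by -0.55 in ESC (386 and 252 against 214 and 212 FPKM, adjusted p = 0.0447), and Rpl5 by -0.58 in HE2 and -0.38 in progenitors. Higher in Sp3-/- cells were Rplp1 in HE1, with 1441 and 918 against 1893 FPKM in both samples (0.72, adjusted p = 0.0371), Rps29 in progenitors (0.48), and the uncertain Rpl34 in HE1 and HE2 (1.15 and 1.11) and Rpl26 in HE2 (1.39). With each sample left out in turn, 5 of the 18 calls in HE2 held (Rpl21, Rpl24, Rpl35a, Rpl39 and Rps6) and none in the other populations. With each population fitted alone, 1, 7, 1, 0 and 0 members were called by limma in the 5 populations (11, 27, 5, 16 and 3 at an unadjusted p under 0.05), and the adjusted p of Rpl39 in HE2 was 0.0686.

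Whether a mutation acted differently in progenitors and in ESC was tested as an interaction. For Sp1ΔDBD/ΔDBD 1 member was called (1.58% of all genes higher and 1.58% lower): the log2 fold change of Rpl21 was 0.52 higher in progenitors than in ESC, where the mutant had 395 and 371 FPKM against 425 and 464 in WT (SE 0.13, adjusted p = 0.0387). The call was lost in 6 of 8 fits with a sample left out. For Sp3-/- no member was called by limma (0.737% of all genes higher and 0.606% lower), and 8 had an unadjusted p under 0.05. The smaller count in Sp3-/- progenitors than in Sp3-/- ESC is thus not shown to be a difference of the effect for any single member.

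The members on chromosome 11 had lower medians than the other members in both mutants. The 7 members on chromosome 11 are Rpl19, Rpl23, Rpl23a, Rpl26, Rpl27, Rpl38 and Rps27a, and the other 68 lie on 18 chromosomes. All 7 were below 0 in Sp1ΔDBD/ΔDBD cells for each of the 5 populations, and all 10 calls of a lower member were among them (6 members). After the correction for GC content and length 3 of these 10 calls stayed (Rpl26 in HE2, Rpl19 and Rps27a in progenitors), and the other 7 had adjusted p from 0.0675 to 0.450. The call of Rpl26 is uncertain because of its copy Gm15772, which lies on chromosome 5. The 7 members had median log2 fold changes of -0.24, -0.25, -0.33, -0.35 and -0.29 in Sp1ΔDBD/ΔDBD ESC, Flk1+ cells, HE1, HE2 and progenitors. The other 68 members had medians of -0.04 to 0.06 there. In Sp3-/- cells the medians were -0.52, -0.33, -0.33, -0.45 and -0.26 against -0.16 to 0.06, with 6 or 7 members below 0. There 16 of 50 calls of a lower member were on chromosome 11, of which 13 stayed after the correction. Of the 22 members called lower in Sp3-/- cells, 5 lie on chromosome 11. The 2 members on chromosome 16 had medians of -0.48, -0.56 and -0.51 in Sp3-/- ESC, Flk1+ cells and HE2. All tested genes of that chromosome had -0.06, -0.01 and -0.01 there. The 4 members on chromosome 10 went the other way, with medians of 0.23, 0.14 and 0.20.

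Genes of chromosome 11 that are not members were lower too. The 1205 tested genes on chromosome 11 had median log2 fold changes of -0.12 to -0.34 in Sp1ΔDBD/ΔDBD and -0.12 to -0.27 in Sp3-/- cells, and 4.73% to 18.9% of them were called lower, against 2.43% to 5.77% of genes elsewhere. The 514 tested genes on chromosome X, which holds Rpl10, Rpl36a, Rpl39 and Rps4x, had medians as low in Sp3-/- ESC and Flk1+ cells (-0.18 and -0.12, and -0.43 and -0.30 for the 4 members). In Sp1ΔDBD/ΔDBD HE1, HE2 and progenitors their medians were above 0 (0.16, 0.17 and 0.16, and 0.29, 0.26 and 0.34 for the 4 members). All comparisons share the WT samples, so a property of the WT line and one of both mutant lines cannot be told apart. The members of the chromosome with the largest changes in ESC were Rpl27, Rps27a, Rpl23 and Rpl23a, of which Rpl23a had 1785 and 1893 FPKM in WT, 1609 and 1691 in Sp1ΔDBD/ΔDBD and 1313 and 1259 in Sp3-/- ESC. Its Sp3-/- samples were below both other genotypes. Between the mutants, where the WT samples enter only through the shared spread, Rpl27 was lower in Sp3-/- cells in ESC, Flk1+ cells and HE2 (-0.49, -0.51 and -0.50, adjusted p = 7.23e-03, 7.19e-03 and 4.26e-03). These calls did not hold with each sample left out in turn.

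**Figure D4:**
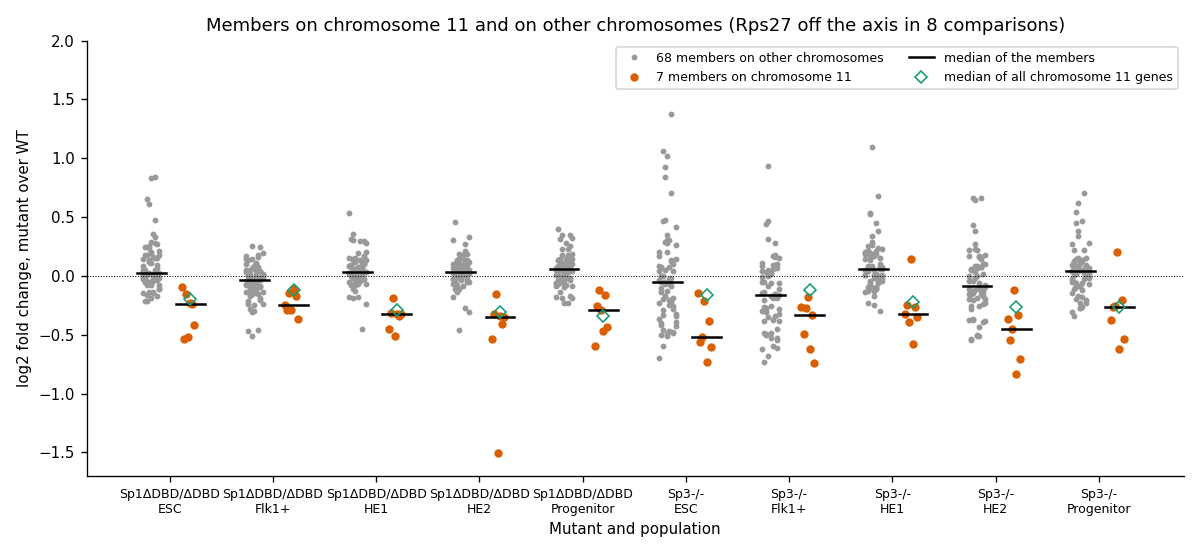
Log2 fold change over WT of the 7 members on chromosome 11 (orange) and the 68 others (grey) in the 10 comparisons, with black lines for medians and open diamonds for the median of all chromosome 11 genes; Rps27 is off the axis in 8 comparisons. The orange medians lie between -0.24 and -0.52 and the grey ones between -0.16 and 0.06.

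The change of a member also went with the GC content of its transcript, with the same sign in both mutants in ESC and with opposite signs in HE1, HE2 and progenitors. The members' longest transcripts had a median GC content of 51.9% (41.3% to 62.4%) and a median length of 906 bases, against 50.2% and 2982 bases for all genes. Over the 75 members Spearman's rho between log2 fold change and GC content was 0.53, 0.52, 0.27, 0.51 and 0.24 in Sp3-/- ESC, Flk1+ cells, HE1, HE2 and progenitors, where it was 0.48, 0.34, 0.12, 0.35 and 0.11 over all genes. For Sp1ΔDBD/ΔDBD it was 0.32, -0.01, -0.49, -0.38 and -0.50 over the members and 0.21, -0.02, -0.26, -0.14 and -0.29 over all genes. These are descriptions across genes that share libraries.

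After a correction of each sample for GC content and gene length, 15 members were called lower and 4 higher in Sp3-/- ESC, 17 and 1 in Flk1+ cells, and 5 and 1 in HE1. HE2 had 9 called lower, progenitors had 4, and neither had a member called higher. The falls of Rpl27 (-1.02, -0.79, -0.70, -0.94 and -0.69 in the 5 populations), of Rps27a in 4 and of Rpl24, Rpl21, Rpl39 and Rpl35a in ESC, Flk1+ cells and HE2 stayed called, while those of Rpl5 were lost (adjusted p = 0.234, 0.134 and 0.199). The rises of Rplp1 and Rplp2 in ESC stayed called (0.64 and 0.60, adjusted p = 0.0174 and 0.0160). Those of Rpl36 (0.0945) and of Rps29 in 4 populations (0.120 to 0.182) and Rps28 were lost. In Sp1ΔDBD/ΔDBD cells the corrected counts were 3 higher and none lower in ESC and 2 and none in HE1.

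**Figure D5:**
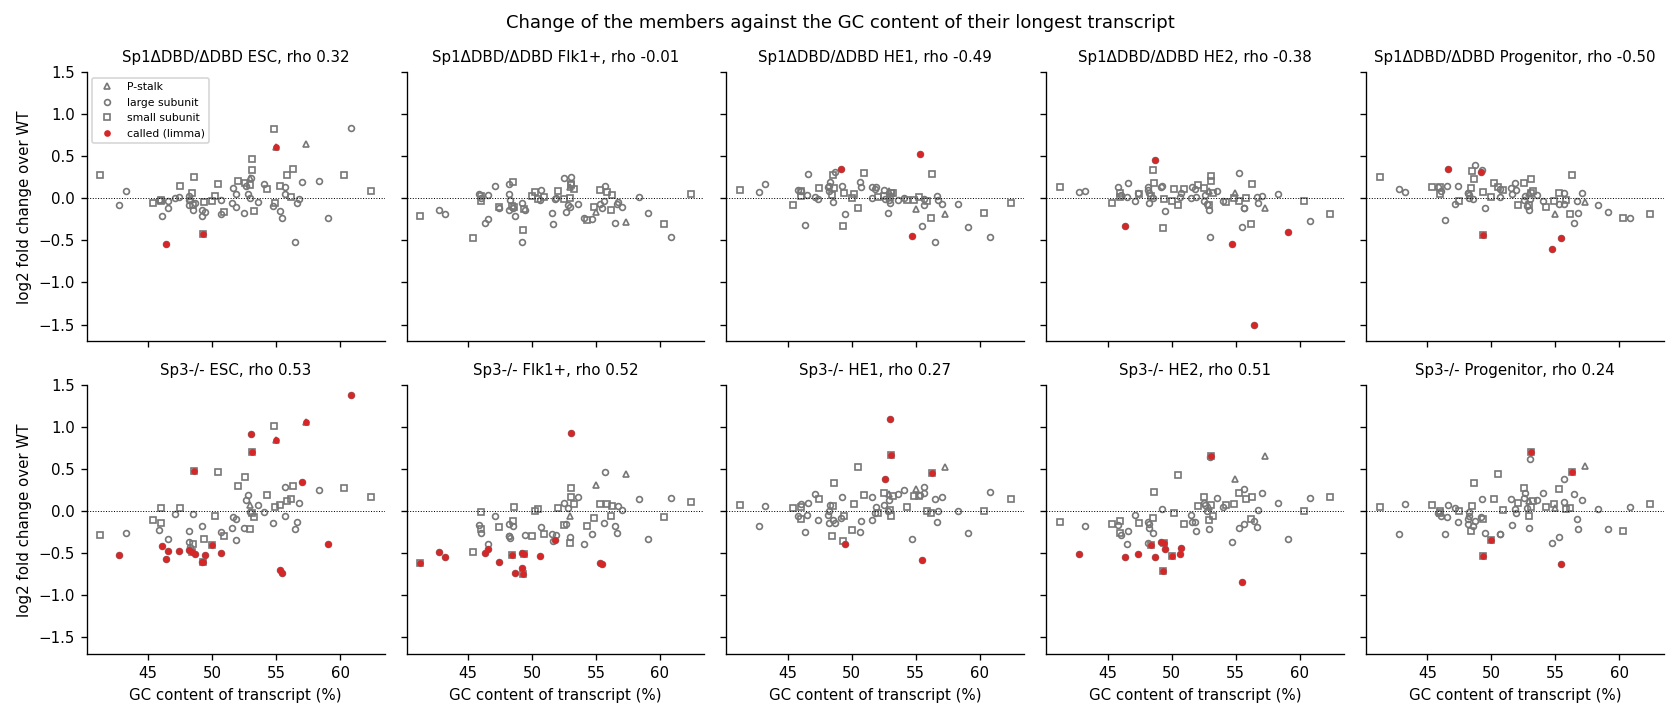
Log2 fold change over WT of each member against the GC content of its longest transcript (percent), for Sp1ΔDBD/ΔDBD (top) and Sp3-/- (bottom) in the 5 populations, with marker shape by subunit, called members filled red and Spearman's rho in each title; Rps27 is off the axis in 8 panels. Members with low GC content are lower and those with high GC content higher in Sp3-/- ESC, Flk1+ cells and HE2, with rho of 0.51 to 0.53.

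The members were then split by the letters of the GC box in their promoters. Of the 33 members with a GC box in at least 1 RefSeq promoter, 7 fell and 3 rose in Sp3-/- ESC (median log2 fold change -0.09), and of the 22 without it 5 fell and 1 rose (-0.15). In Flk1+ cells 7 of 33 and 5 of 22 fell (-0.18 and -0.20), and in HE2 4 of 33 and 6 of 22 (-0.13 and -0.12). In Sp1ΔDBD/ΔDBD cells the medians were -0.06 to 0.05 with and -0.07 to 0.07 without a GC box. The remaining 20 members had no promoter in the table used.

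Introns of 28 members hold 53 genes for snoRNAs, the small RNAs that guide the modification of ribosomal RNA, and 29 of these snoRNA genes were tested. None fell in Sp3-/- HE1, HE2 or progenitors, where 8, 7 and 10 rose, with median log2 fold changes of 0.95, 0.76 and 1.02. Of all genes tested 6.02%, 6.97% and 3.88% rose there. In Sp1ΔDBD/ΔDBD cells 2, 2 and 1 rose in these populations, where 5.69%, 4.70% and 3.75% of all genes did. In ESC and Flk1+ cells at most 1 was called in either direction in a mutant. Whether snoRNA reads entered the values of their host genes was not tested.

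Of the 13 ribosomal genes with other names 12 were tested. Limma called none of them in Sp1ΔDBD/ΔDBD cells (1 to 3 had an unadjusted p under 0.05 in each population), where Fau in ESC came nearest (0.47, adjusted p = 0.0506). In Sp3-/- ESC 4 fell and 1 rose, where 5.91% and 5.40% of all genes tested did. Rps3a1, a small subunit protein, fell by 0.50 and by 0.42 and 0.40 in Flk1+ cells and HE2, and Rpl22l1, the paralogue of Rpl22, fell from a mean of 349 to 185 FPKM in ESC (-0.89, adjusted p = 0.0105) and from 477 to 244 FPKM in Flk1+ cells (-0.97, adjusted p = 5.78e-03). Fau, a fusion of a ubiquitin-like domain with a small subunit protein, rose in ESC from 394 to 550 FPKM (0.49, adjusted p = 0.0298). Rpsa was not called in either mutant, with log2 fold changes of -0.03 to 0.20. Gm15772, the copy of Rpl26, fell by 0.53, 0.44 and 0.56 in Sp3-/- ESC, Flk1+ cells and HE2. It also fell in Sp1ΔDBD/ΔDBD HE2 (-0.38, limma adjusted p = 0.0485), where Rpl26 was called lower as well. In the other populations of that mutant its log2 fold changes were -0.25 to -0.40 and not called. Like Rpl26, it lies among genes for which the read assignment is uncertain.

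Genes that build ribosomes fell at both steps out of ESC, including the first, at which the members' median change was 0.13. Of 59 tested genes of ribosome biogenesis 36 fell and 3 rose from WT ESC to Flk1+ cells (median log2 change -0.48), 48 fell and none rose into HE1 (-0.68), and 27 rose and none fell into HE2 (0.45). Of all genes tested 24.7% fell at the first step, 29.5% fell into HE1 and 11.7% rose into HE2. In Sp3-/- cells 1 rose and 5 fell in ESC, 7 rose and 1 fell in Flk1+ cells, 8 rose and 1 fell in HE1, 12 rose and 1 fell in HE2, and 2 rose in progenitors. In these comparisons 3.88% to 6.97% of all genes tested rose and 4.77% to 6.84% fell. The largest rise in HE1 was that of Noc4l, a factor for small subunit assembly, from 14.7 to 27.0 FPKM (0.87, adjusted p = 1.08e-04). Of 14 genes of RNA polymerase I and its factors 8 fell from ESC to Flk1+ cells and 9 into HE1.

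Of 15 other genes with a 5′ TOP motif, such as Eif3e and Tpt1, 3, 3, 1, 4 and 1 fell in Sp3-/- ESC, Flk1+ cells, HE1, HE2 and progenitors. Of all genes tested 5.91%, 5.94%, 4.87%, 6.84% and 4.77% fell in these comparisons. Rack1, a protein of the small subunit outside the naming rule whose gene is on chromosome 11, fell in Sp1ΔDBD/ΔDBD HE1, HE2 and progenitors (-0.40, -0.43 and -0.57). It fell in Sp3-/- HE1 and progenitors as well (-0.40 and -0.41). Of 78 mitochondrial ribosomal protein genes 7 rose and 1 fell in Sp3-/- ESC, where 5.40% and 5.91% of all genes tested did. In Sp1ΔDBD/ΔDBD HE2 8 fell and none rose, where 4.97% and 4.70% of all genes did. Genes of this list were also called in the other comparisons of each mutant with WT. Among the regulators listed, Mycn rose in Sp3-/- ESC and Flk1+ cells (0.53 and 0.72) and fell in Sp1ΔDBD/ΔDBD HE2 and progenitors (-0.64 and -0.89). Sp3 itself was higher in Sp1ΔDBD/ΔDBD HE1, at a mean of 42.8 against 26.1 FPKM (0.71, adjusted p = 0.0210).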

How the data were processed

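RNA-seq of 30 samples in 15 groups of 2 replicates was analysed. Per the labels, total RNA depleted of ribosomal RNA was made into stranded paired-end libraries. The authors trimmed reads with trimmomatic, mapped them with HISAT2 2.1.0 on mm10 and calculated FPKM per gene with StringTie 1.3.3; the deposited FPKM values were quantile normalised over all samples, after genes above 1 FPKM in at least 1 sample had been kept. At 12742 of 14685 ranks every sample had one common value (largest difference 0.192 FPKM). Quantile normalisation hides any change in the total output of a sample, so a shift common to all genes cannot be seen. Depth is unknown, so the spread between replicates is the only measure of error.

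Samples were grouped by the population and genotype in their labels. The 15 group means of log2(FPKM + 0.1) were fitted with limma 3.58.1 (R 4.3.3; moderated with an intensity trend, 15 residual and 3.92 prior degrees of freedom), and two-sided p-values were adjusted after Benjamini and Hochberg over 14525 genes (threshold 0.05). An exact permutation test for 2 samples per group has 0.333 as its lowest p. Same-numbered samples of a genotype in HE1, HE2 and progenitors had deviations from their group means with correlations of 0.0412 to 0.684 across 9290 genes, so samples were not fully independent and p-values may be too small. Whether replicates came from separate cultures is not given per sample, and p-values measure the spread between these samples. The annotation (positions, transcript GC content, lengths) was GENCODE M21 on GRCm38, in which 14562 symbols were matched and 123 were not. Copies were searched with blastn 2.17.0 at 97% identity over 90% of the coding sequence. Python 3.11.15, numpy 2.4.6, pandas 2.3.3 and matplotlib 3.10.9 were used. The fit was tested on simulated data.

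The members and gene lists were chosen with earlier results of these data known. Named members were, per comparison, the 2 called with the largest rise and fall, the 3 with the highest and lowest mean levels, the 3 P-stalk genes, 9 Diamond-Blackfan genes, the 3 most variable and at most 4 on chromosome 11; of the other lists, the called gene with the largest rise and fall. Others are named as chosen after their values were seen. Results of some genes are not reported here.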

Additional observations from a re-analysis of the deposited data

Results flagged for a closer look

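The effect of the Sp1 mutation on Rpl21 differed between progenitors and ESC by a test of the difference itself, the interaction in limma. The log2 fold change was 0.52 higher in progenitors, with an adjusted p of 0.0387 over all genes tested. In ESC the mutant samples had 395 and 371 FPKM and the WT samples 425 and 464, while in progenitors the mutant had 455 and 428 and WT 365 and 346, so the direction of the difference was opposite and the samples did not overlap in either population. With a sample left out in turn the adjusted p was between 0.0318 and 0.148, and after the correction for GC content and length it was 0.119.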

How the results depend on the processing

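All 57 named calls kept their direction under every alternative run, and all stayed called with a pseudocount of 1, with no filter on low values, with the replicate block and with scaling on genes that are not members. With a correction for GC content and length 19 were lost, and with populations fitted alone 45 (41 and 4). Counts of called members were within 1.5 times the reported ones with no filter and with the scaling.

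With a pseudocount of 1 the count was 1 in Sp1ΔDBD/ΔDBD Flk1+ cells (0 reported), 5 in HE1 (3) and 2 for the Sp3-/- interaction (0). With the correction for GC content and length it was 3 in Sp1ΔDBD/ΔDBD HE2 and 3 in progenitors (5 each reported), 9 in Sp3-/- HE2 (14), 2 between the mutants in progenitors (7), 38 from WT ESC to Flk1+ cells (17) and 0 for the Sp1ΔDBD/ΔDBD interaction (1). With each population fitted alone it was 0 in Sp1ΔDBD/ΔDBD ESC, HE1, HE2 and progenitors, 2 in Sp3-/- ESC (23) and 0 in Sp3-/- HE1, HE2 and progenitors, and between the mutants 1 in ESC (11), 7 in Flk1+ cells (12), 1 in HE1 (8) and 0 in HE2 (18) and progenitors (7); the Sp1ΔDBD/ΔDBD interaction gave 0. This setting has fewer samples behind its spread.

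With 1 sample left out in turn the counts for ESC, Flk1+ cells, HE1, HE2 and progenitors ranged from 1 to 4, 0 to 0, 0 to 2, 0 to 5 and 1 to 3 in Sp1ΔDBD/ΔDBD cells. They ranged from 7 to 14, 4 to 11, 1 to 4, 5 to 13 and 2 to 3 in Sp3-/- cells, and from 0 to 8, 1 to 6, 1 to 7, 6 to 15 and 0 to 4 between the mutants. For the WT steps they were 3 to 20, 11 to 21, 1 to 8 and 0 to 2, and for the interactions 0 to 1 and 0 to 0. The left out group's lone sample was assumed to vary like the other groups.

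With the replicate number within each population as a block the counts were 5 in Sp1ΔDBD/ΔDBD ESC (3 reported), 5 in HE1 (3), 1 from WT HE2 to progenitors (0), 2 for the Sp1ΔDBD/ΔDBD interaction (1) and 2 for the Sp3-/- interaction (0); the others stayed within 1.5 times. Deviations of same-numbered samples of a population had correlations of 0.210 to 0.513 between WT and Sp1ΔDBD/ΔDBD, above 0.1 in all 5 populations, and of -0.0890 to 0.214 for the other pairs of genotypes. The labels do not say what a number shares, so a pairing of WT and Sp1ΔDBD/ΔDBD samples is a hint from the data and not part of the design. The unknown depth limits the calls of members at low levels, such as Rpl26.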
